A study of Mus musculus with 6 samples.

Results

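The genes described here are 39 lysosomal hydrolases, their cofactors and lysosomal membrane proteins, together with Tfeb, a transcription factor that controls many of them. They were taken by gene symbol from a list based on known function, whose rule sets no measured value, and are 39 of the 55291 symbols in the tables. The cathepsins and the subunits of the vacuolar proton pump were left out of the list. All 39 passed the filter on low counts, as did 12440 of all symbols. By role they are 12 glycosidases and related enzymes of sugar chains, 8 lipid hydrolases and lipid-binding cofactors, 5 sulfatases, 3 peptidases, 10 membrane proteins and the regulator Tfeb.

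RNA was sequenced as 6 libraries from RAW264.7 cells, a mouse macrophage line from ascites that turns into osteoclasts under RANKL, the cytokine that drives osteoclast formation. The shUSP8 group (n = 3) is labelled as a knock down of USP8, a deubiquitinating enzyme that acts on cargo of endosomes. The shCtrl group (n = 3) has the control hairpin and the genotype label WT. Both groups were given RANKL at 50 ng/mL for 4 days. How the hairpins were delivered, and whether the libraries of a group come from separate cultures, is not stated in the labels, so p-values measure only how these libraries vary, and that variation may be technical. Total expected counts lay between 19973522 and 20142107 in shUSP8 and between 20121644 and 20213939 in shCtrl.

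Usp8 itself (chr2:126707328-126759297, plus strand; GRCm38, as all positions here) stood at 32.0, 34.8 and 35.1 CPM (counts scaled to library size) in shUSP8, against 141, 129 and 137 CPM in shCtrl (4.00-fold lower, SE of the log2 fold change 0.058, edgeR adjusted p = 1.47e-10). The identity of the cells was read from marker lists, chosen with earlier results of these data known. Markers of osteoclasts and of macrophages were both present. The 8 osteoclast markers summed to between 8904 and 9182 TPM (a level per transcript length) in shUSP8 and between 9349 and 10119.8 TPM in shCtrl, and 4 of them fell. The 8 macrophage and monocyte markers summed to between 6083 and 6702 TPM in shUSP8 and between 4004 and 4306 TPM in shCtrl. Lyz2 alone made up 3277 ± 154 TPM of this sum in shUSP8 and 939 ± 49.7 TPM in shCtrl, and the other 7 markers summed to 3177 ± 177 TPM in shUSP8 and 3187 ± 116 TPM in shCtrl (SD, n = 3 each), which overlap. Of the 8 markers 6 rose and 2 fell, Cd68 and Csf1r, where 17.8% of all genes tested rose and 14.9% fell. The 2 that fell held most of the sum without Lyz2. Cd68 had 1923 ± 113 TPM in shUSP8 and 2234 ± 99.8 TPM in shCtrl (SD, n = 3 each). Csf1r had 716 ± 76.7 TPM in shUSP8 and 771 ± 26.7 TPM in shCtrl. The similar sums without Lyz2 thus join the falls of these genes with rises of all the others. Neutrophil markers summed to between 4.82 and 5.31 TPM in shUSP8 and between 1.72 and 2.57 TPM in shCtrl, and stromal markers to between 2.86 and 4.56 TPM in shUSP8 and between 2.77 and 4.02 TPM in shCtrl. Lymphocyte markers summed to at most 0.14 TPM in any library. Cd209a, Ly6g, Elane, Camp, Ltf, Retnlg, Cd3e, Cd3g, Cd8a, Ms4a1, Ncr1, Lum and Alpl had 0 counts in every library. The 8 dendritic cell markers summed to between 71.02 and 81.22 TPM in shUSP8 and between 61.88 and 62.91 TPM in shCtrl. The part that the shift of macrophage and osteoclast markers has in the changes below was not tested, and in bulk RNA fewer cells of a type cannot be told apart from less RNA per cell.

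Lysosomes break down what reaches them by endocytosis, phagocytosis and autophagy. Soluble hydrolases remove sugars, sulfates, lipids and peptides from larger molecules, and inherited loss of many of them causes a storage disease. Most of these enzymes are tagged with mannose 6-phosphate in the Golgi and carried to the lysosome by receptors, while heavily glycosylated membrane proteins line its inner face. In osteoclasts lysosomes are also secretory: they fuse with the membrane that faces bone and release their acid hydrolases onto it. Tfeb and its relatives Tfe3 and Mitf bind a short promoter element, the CLEAR element, whose core is the letters CACGTG.

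The promoters of the listed genes were searched for this core. RefSeq (GRCm38.p6) gave a promoter, from 250 bases before to 50 bases after a start, for 34 of the 39 genes. The motif CACGTG, which reads the same on both strands, stood in at least 1 promoter of 11 of these 34 genes (32.4%), against 12.04% of 9361 tested genes with a promoter and 8.09% of all 27025. The longer form TCACGTGA, which contains the first motif, stood in 4 of the 34 (11.8%), against 2.20% of the tested genes. Neither was particular to the 39. Of 44 other lysosomal genes with a promoter, from a list described below, 8 had the core (18.2%) and 6 the longer form (13.6%). The core stood in 4 of 11 genes that rose, 3 of 8 that fell and 4 of 15 that were not called. A match is a description of the letters, not a binding site. The following 30-base windows, 5′ to 3′ on the gene's strand with the core in capitals, are shown because their genes went in different directions in shUSP8: the first 3 rose, the next 3 fell and the last 3 were not called.
Gla (chrX:134601182-134601211, minus strand): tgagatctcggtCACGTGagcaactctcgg
Lamp1 (chr8:13159088-13159117, plus strand): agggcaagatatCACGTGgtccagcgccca
Lgmn (chr12:102439124-102439153, minus strand): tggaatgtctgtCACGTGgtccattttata
Naglu (chr11:101070009-101070038, plus strand): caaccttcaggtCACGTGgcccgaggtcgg
Dpp7 (chr2:25356388-25356417, minus strand): ccgccagactatCACGTGatgctgccccgc
Glb1 (chr9:114401018-114401047, plus strand): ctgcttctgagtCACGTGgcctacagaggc
Mcoln1 (chr8:3500462-3500491, plus strand): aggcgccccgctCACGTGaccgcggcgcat
Cln3 (chr7:126583340-126583369, minus strand): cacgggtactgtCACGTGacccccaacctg
Sgsh (chr11:119355522-119355551, minus strand): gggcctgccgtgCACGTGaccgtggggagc

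The Lamp1 promoter held 4 copies of the core, and those of Gla, Mcoln1 and Cln3 held 2 each. Of the windows printed, those of Gla, Dpp7, Mcoln1 and Cln3 also hold the longer form. Lipa and Gm2a, the genes with the highest and the lowest fold change of the 39, had no copy of the core in the promoter searched.

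A handful of these genes made up more of the summed level than all the others. The 39 genes summed to 6141, 5893 and 6321 TPM in shUSP8_1 to shUSP8_3, against 5726, 5587 and 5351 TPM in shCtrl_1 to shCtrl_3. Every shUSP8 library was above every shCtrl library on this scale, but the median difference of log2(TPM + 1) over all genes tested was itself 0.11. As a share of all expected counts they took 1.04% ± 0.0144 in shUSP8 and 0.975% ± 0.0158 in shCtrl (SD, n = 3 each). With counts scaled to library totals alone, the median log2 fold change over all genes tested was 0.069. Neither sum is corrected for this shift, and its part in their rise was not tested. Psap, Cd63, Npc2 and Hexa together held 51.3% of the summed TPM in shUSP8 and 54.3% in shCtrl.

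Psap, the precursor of the saposins that present lipids to hydrolases, had 1170.1, 1138 and 1195 TPM in shUSP8, against 1031, 1002 and 909 TPM in shCtrl. The tetraspanin Cd63 had 1115, 963 and 1120.3 TPM in shUSP8 and 1023, 1001 and 973 TPM in shCtrl. Psap ranked above Cd63 in every shUSP8 library, while in shCtrl the levels of the pair overlapped. Hexa and Npc2 came next: Hexa had 451, 419 and 440.4 TPM in shUSP8 and 536, 536 and 518 TPM in shCtrl. Npc2 had 505, 421 and 486 TPM in shUSP8 and 509, 510.4 and 493 TPM in shCtrl, so that the mean of Npc2 was above that of Hexa in shUSP8 and below it in shCtrl. Lamp1 had rank 5 in both groups. At the low end, Pla2g15 had 12.8 ± 0.533 TPM in shUSP8 and 7.98 ± 0.225 TPM in shCtrl, Scarb2 11.3 ± 0.417 TPM in shUSP8 and 8.78 ± 0.507 TPM in shCtrl, and Ids 9.83 ± 0.313 TPM in shUSP8 and 10.1 ± 0.151 TPM in shCtrl (SD, n = 3 each). Over the 39 genes, the level in shCtrl and the fold change were nearly unrelated (Spearman rho -0.078, a description across 39 genes measured in the same libraries).

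Reduced Usp8 came with changes in both directions within the list. Of the 39 genes, 12 rose (30.8%), against 17.8% of the 12440 genes tested, and 9 fell (23.1%), against 14.9% (edgeR quasi-likelihood test, adjusted p under 0.05 over all genes). Among the 6667 genes with a mean CPM at or above that of the lowest of the 39, Pla2g15 at 21.2 CPM, 17.6% rose and 20.1% fell, so the share of falls was close to that of genes of like level. The 3 shUSP8 libraries lay above the 3 shCtrl libraries for 14 of the 39 genes and below them for 12, against 24.6% and 23.1% of all genes tested. The median log2 fold change was -0.033, beside -0.0049 for all genes tested, with a range of -0.71 for Gm2a to 0.99 for Lipa. By role, 4 glycosidases rose and 4 fell, 4 lipid genes rose and 3 fell, 1 peptidase rose and 1 fell, and 3 membrane proteins rose and 1 fell. No sulfatase was called and neither was Tfeb. In limma on log2(TPM + 1), 13 of the 39 rose and 4 fell, against 2379 rises and 500 falls among the 12440 genes, and there the median difference over all genes was 0.11.

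**Figure D1:**
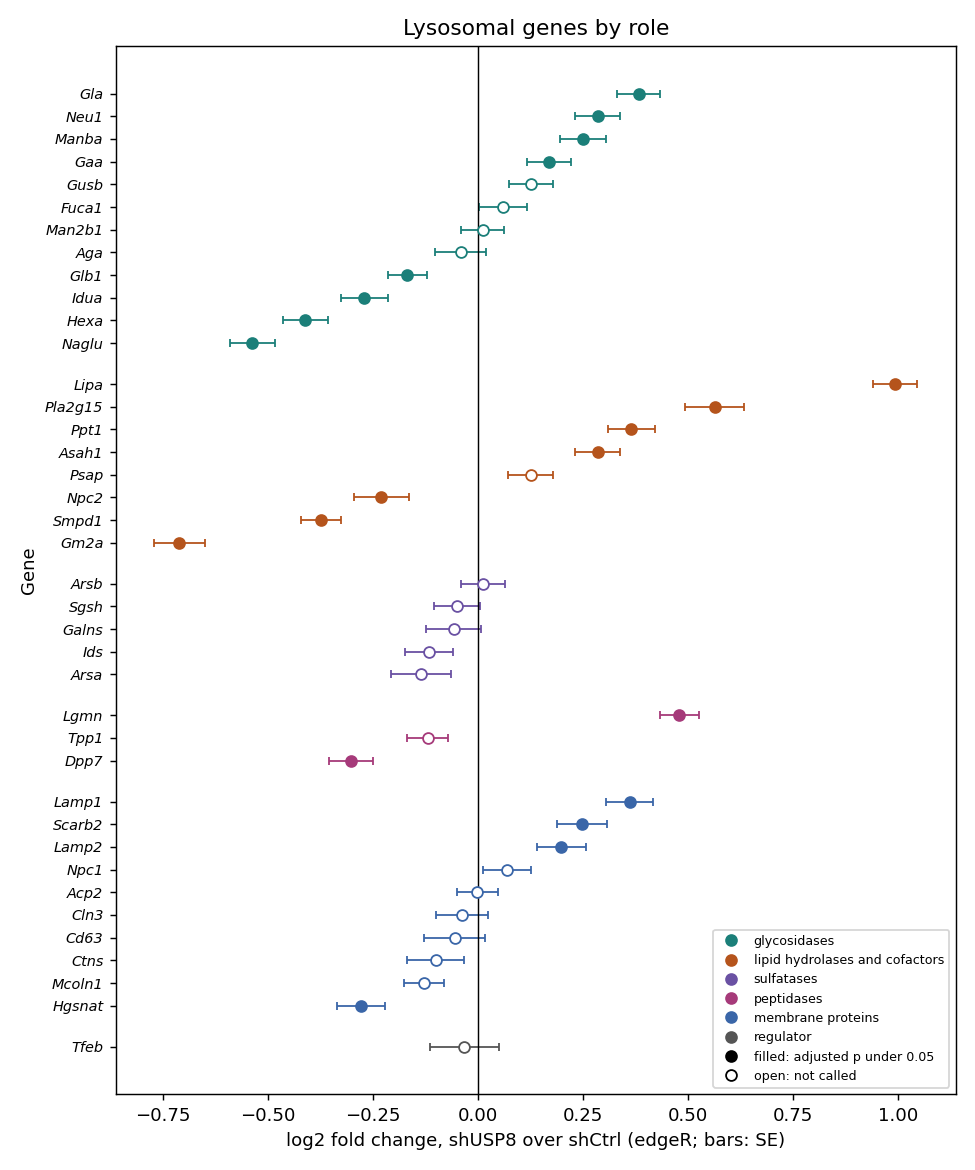
Log2 fold change (shUSP8 over shCtrl, edgeR) of each of the 39 lysosomal genes, grouped by role, with bars for the SE and filled points for genes with an adjusted p under 0.05. Rises and falls stand side by side in every role except the sulfatases, where all 5 points are open, and the single regulator; Lipa lies at 0.99 and Gm2a at -0.71.

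The lipid group held both ends of the range. Changes given below without a unit are log2 fold changes, and values in brackets after a setting are adjusted p-values. Lipa (chr19:34492318-34527474, minus strand), the acid lipase that frees cholesterol and fatty acids from lipoproteins and lipid droplets, had 442, 412 and 454 CPM in shUSP8, against 217, 225 and 216 CPM in shCtrl. It rose 1.99-fold (log2 fold change 0.99, SE 0.053, edgeR adjusted p = 3.4e-08), and its groups were far apart. Pla2g15, a lysosomal phospholipase A2, had 25.0, 26.9 and 23.8 CPM in shUSP8, against 17.1, 17.0 and 17.2 CPM in shCtrl, and rose by 0.56 (SE 0.070). Ppt1, which removes palmitate from proteins, had 60.7, 61.8 and 56.5 CPM in shUSP8, against 47.0, 45.5 and 46.6 CPM in shCtrl, and rose by 0.36 (SE 0.056). Asah1, acid ceramidase, had 108, 118 and 115 CPM in shUSP8, against 96.0, 89.2 and 94.6 CPM in shCtrl, and rose by 0.28 (SE 0.054). None of these groups overlapped.

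In the opposite direction, Gm2a (chr11:55098115-55113029, plus strand), the activator that lifts GM2 ganglioside out of the membrane for hydrolysis, had 289.8, 262 and 265 CPM in shUSP8, against 435, 427 and 475 CPM in shCtrl. It fell 1.64-fold (log2 fold change -0.71, SE 0.060, adjusted p = 2.29e-06). Smpd1, acid sphingomyelinase, which makes the ceramide that Asah1 degrades, had 107, 113 and 109 CPM in shUSP8, against 142, 140.4 and 144 CPM in shCtrl, and its log2 fold change was -0.37 (SE 0.047). Thus the ceramide-forming enzyme fell and the ceramide-degrading enzyme rose in the same libraries. Npc2, the soluble carrier that takes the cholesterol released by Lipa to the membrane protein Npc1, had 1235, 1038 and 1118 CPM in shUSP8, against 1298, 1333 and 1347 CPM in shCtrl. Its fall was small (-0.23, SE 0.065, adjusted p = 0.0174) and the call was lost without shUSP8_3 (adjusted p = 0.0671), shCtrl_2 (0.0673) or shCtrl_3 (0.0599), and with offsets for effective length, the length of a transcript from which fragments can come (0.0643). The Npc2 call was also lost with library totals (0.0679) and on log2(TPM + 1) (0.346). Npc1 had 166, 188 and 170.3 CPM in shUSP8 and 161, 168 and 171 CPM in shCtrl, with an overlap of the groups and a log2 fold change of 0.069 (95% interval -0.056 to 0.19). The ratio of Lipa to Npc2 in TPM was 0.394, 0.440 and 0.444 in shUSP8, against 0.185, 0.186 and 0.176 in shCtrl. Psap had 2290.4, 2228 and 2218 CPM in shUSP8 and 2100.3, 2093 and 1983 CPM in shCtrl, which did not overlap, but it was not called (0.13, adjusted p = 0.0949). With library totals in place of TMM factors Psap was at 0.20 (adjusted p = 0.0135), and on log2(TPM + 1) at 0.25 (0.0218).

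**Figure D2:**
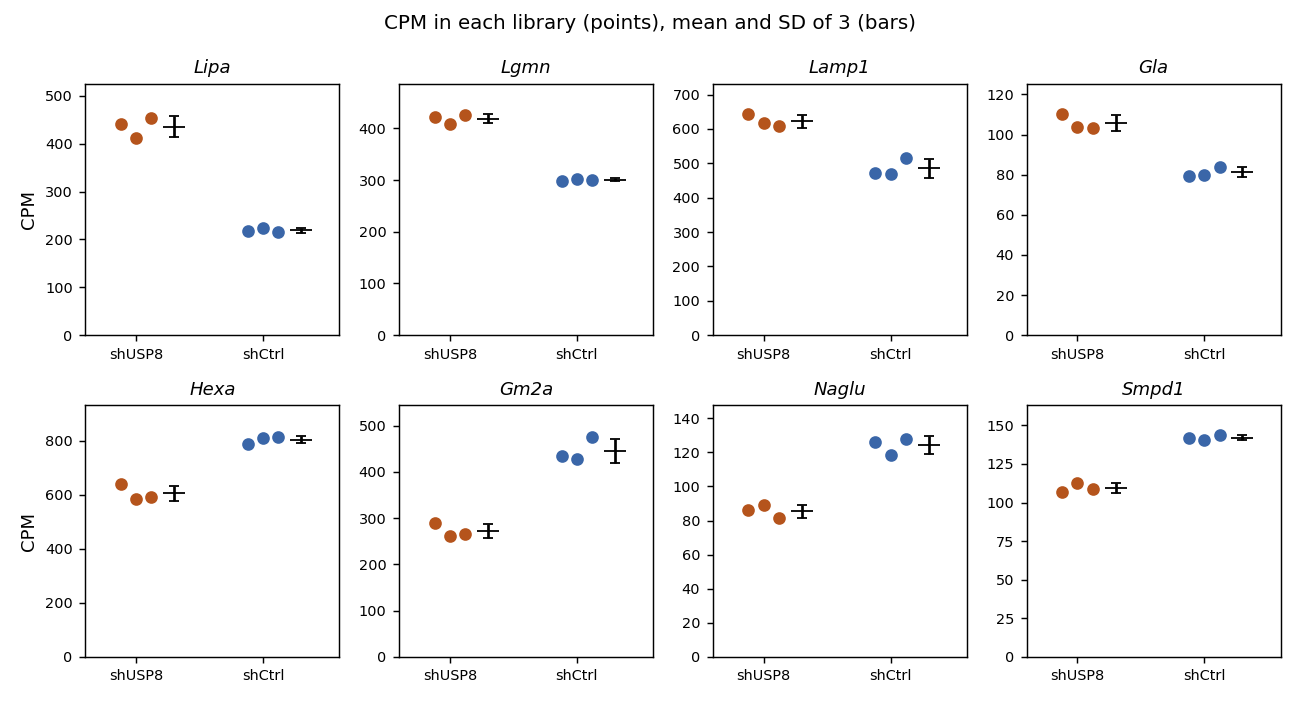
CPM of 8 genes in the 3 shUSP8 libraries (left in each panel) and the 3 shCtrl libraries (right), with the mean and SD of each group beside the points. Lipa, Lgmn, Lamp1 and Gla are higher in every shUSP8 library, and Hexa, Gm2a, Naglu and Smpd1 are lower in every shUSP8 library; within each panel the groups do not overlap.

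Among the glycosidases, enzymes that cut sugars from glycolipids, glycoproteins and glycosaminoglycans, the rises were led by Gla. Gla, alpha-galactosidase A, which acts on globotriaosylceramide, had 110.4, 104 and 104 CPM in shUSP8, against 79.5, 80.1 and 84.1 CPM in shCtrl. Its log2 fold change was 0.38 (SE 0.051, adjusted p = 0.000125). Neu1, the sialidase that removes terminal sialic acid, had 104, 109 and 101 CPM in shUSP8, against 87.5, 88.2 and 82.1 CPM in shCtrl, and rose by 0.28 (SE 0.053). For both, each shUSP8 library was above each shCtrl library, and both calls held under every alternative tried.

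The rises of Manba and Gaa were less firm. Manba, beta-mannosidase, had 105, 118 and 114 CPM in shUSP8 and 97.5, 93.4 and 92.3 CPM in shCtrl (log2 fold change 0.25, SE 0.054). Its estimated effective length was 1966, 2457 and 1949 bases in shUSP8 and 1688, 1725 and 2044 bases in shCtrl. With effective-length offsets Manba was at 0.021 and not called (adjusted p = 0.922), and in TPM its values were 64.6, 55.7 and 73.7 in shUSP8 and 66.3, 60.8 and 48.6 in shCtrl, which overlap (0.482 on log2(TPM + 1)). Gaa, the acid alpha-glucosidase that degrades glycogen, had 127, 135 and 136 CPM in shUSP8 and 122, 119.6 and 112 CPM in shCtrl (log2 fold change 0.17, SE 0.052, adjusted p = 0.0271). The Gaa call was lost without shUSP8_2 (adjusted p = 0.0512), shUSP8_3 (0.0996), shCtrl_2 (0.0778) or shCtrl_3 (0.107), with DESeq2 (0.0523), on log2(TPM + 1) without the filter (0.0701) and with the replicate block (0.0542).

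The glycosidases that fell were Naglu, Hexa, Idua and Glb1. Naglu, which removes N-acetylglucosamine from heparan sulfate, had 86.4, 88.9 and 81.5 CPM in shUSP8, against 126, 118 and 128 CPM in shCtrl. Its log2 fold change was -0.54 (SE 0.054, adjusted p = 1.11e-05), a level 1.45-fold lower in shUSP8. Hexa, the alpha subunit of beta-hexosaminidase, had 639, 586 and 591 CPM in shUSP8, against 788, 810.0 and 816 CPM in shCtrl, and its log2 fold change was -0.41 (SE 0.053, adjusted p = 9.83e-05). Hexa and Gm2a act on the same lipid. In TPM, Gm2a per Hexa was 0.202, 0.194 and 0.199 in shUSP8, against 0.244, 0.234 and 0.258 in shCtrl.

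Idua, which cuts iduronic acid from heparan and dermatan sulfate, had 44.4, 46.5 and 43.4 CPM in shUSP8, against 55.3, 52.3 and 54.5 CPM in shCtrl, and fell by 0.27 on the log2 scale (SE 0.056). With effective-length offsets it was at -0.21 and not called (adjusted p = 0.0893), and likewise on log2(TPM + 1) at -0.080 (0.531). Glb1, acid beta-galactosidase, had 171, 174 and 169 CPM in shUSP8 and 197, 192 and 188 CPM in shCtrl (log2 fold change -0.17, SE 0.047, adjusted p = 0.0151). The Glb1 call was lost without shUSP8_3 (adjusted p = 0.0643), shCtrl_1 (0.0708) or shCtrl_2 (0.0642), and with library totals (0.166). Glb1 was at -0.038 on log2(TPM + 1) (0.678), or -0.15 relative to the median of all genes.

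Of the other glycosidases, Gusb, beta-glucuronidase, had the highest TPM, a mean of 314 ± 7.67 in shUSP8 and 265 ± 21.3 in shCtrl, and 599, 614 and 593 CPM in shUSP8 and 576, 556 and 526 CPM in shCtrl. Its groups did not overlap, yet it was not called (0.12, adjusted p = 0.0889, 95% interval 0.010 to 0.24). It passed with library totals (0.20, adjusted p = 0.016) and on log2(TPM + 1) (0.25, adjusted p = 0.0369). The groups overlapped for Man2b1, the acid alpha-mannosidase, Fuca1, which removes fucose, and Aga, which splits the bond between a sugar chain and asparagine. Their log2 fold changes were 0.011 (95% interval -0.10 to 0.12), 0.060 (-0.064 to 0.18) and -0.042 (-0.18 to 0.092).

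None of the 5 sulfatases was called by edgeR, and their log2 fold changes lay between -0.14 and 0.011. These enzymes strip sulfate groups from glycosaminoglycans and sulfatide, and all of them need the same activating enzyme, Sumf1. Arsb, which removes sulfate from dermatan and chondroitin sulfate, had 509.9, 545 and 522 CPM in shUSP8 and 538, 527 and 499 CPM in shCtrl (95% interval of the log2 fold change -0.10 to 0.13). Sgsh, which acts on heparan sulfate, had 60.2, 59.0 and 59.5 CPM in shUSP8 and 64.1, 62.5 and 58.4 CPM in shCtrl (95% interval -0.17 to 0.067). Galns, which acts on keratan sulfate, had 44.8, 45.8 and 41.4 CPM in shUSP8 and 48.8, 45.2 and 43.3 CPM in shCtrl (-0.20 to 0.085). Groups overlapped for these genes and for Arsa, which acts on sulfatide, at 29.5, 32.6 and 29.7 CPM in shUSP8 and 36.1, 32.0 and 32.8 CPM in shCtrl (-0.29 to 0.020). Ids, iduronate 2-sulfatase, was the exception, with 37.2, 38.6 and 37.6 CPM in shUSP8 below 39.9, 41.5 and 41.7 CPM in shCtrl, at a log2 fold change of -0.12 (adjusted p = 0.136). Sumf1 stood at 70.0 ± 1.42 CPM in shUSP8 and 65.0 ± 1.75 CPM in shCtrl and was not called (0.11, adjusted p = 0.122). Of the listed enzymes of heparan sulfate breakdown, Naglu, Idua and Hgsnat fell, and Sgsh, Ids and Gusb were not called. Gusb was above shCtrl in every shUSP8 library, at 0.12 (edgeR adjusted p = 0.0889). The calls of Idua and Hgsnat were lost on log2(TPM + 1).

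Each of the 3 peptidases behaved differently. Lgmn, the asparaginyl endopeptidase legumain, which also activates cathepsins, had 423, 409 and 425 CPM in shUSP8, against 298, 303 and 301 CPM in shCtrl. It rose 1.39-fold (log2 fold change 0.48, SE 0.047, adjusted p = 9.51e-06) with tight groups. Dpp7, a dipeptidyl peptidase, had 78.3, 71.4 and 72.4 CPM in shUSP8, against 91.4, 92.3 and 90.4 CPM in shCtrl, and fell by 0.30 on the log2 scale (SE 0.052, adjusted p = 0.000821). Dpp7 was at -0.14 on log2(TPM + 1) and not called (0.145), or at -0.25 relative to the median of all genes. Tpp1, a tripeptidyl peptidase, had 391, 415 and 415 CPM in shUSP8 below 439, 446 and 443 CPM in shCtrl, but was not called (-0.12, adjusted p = 0.0815).

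**Figure D3:**
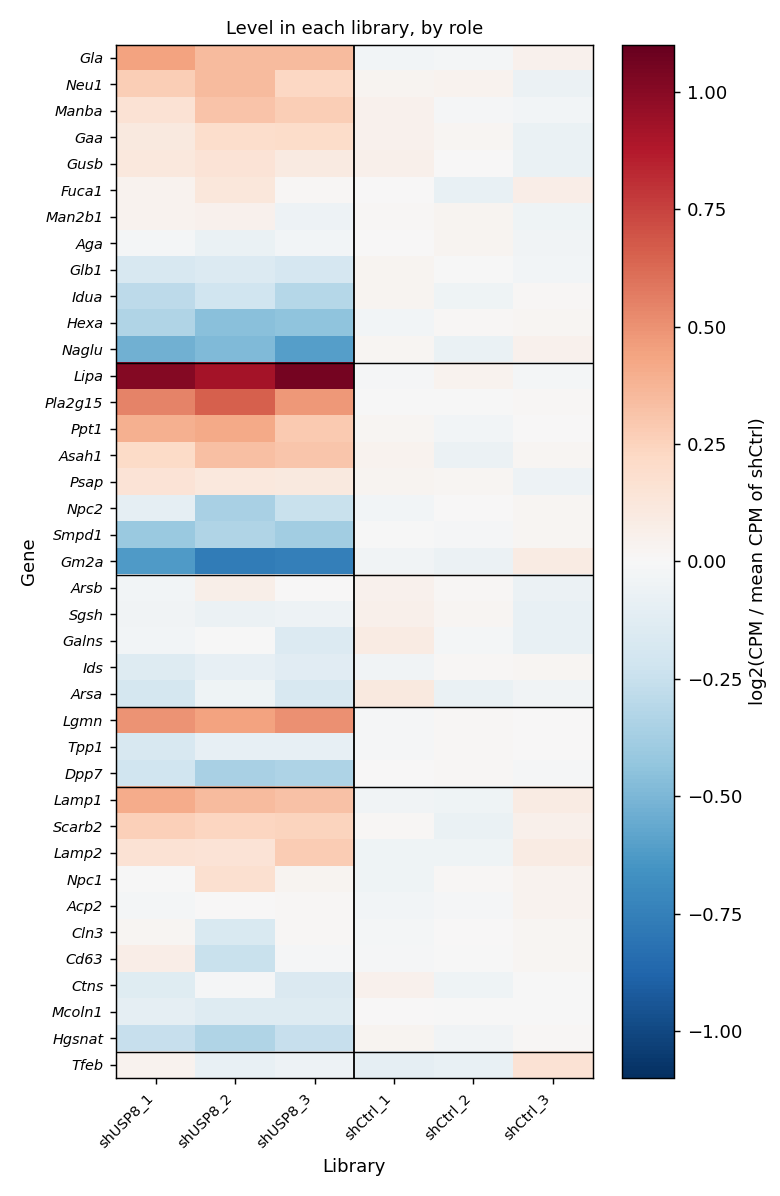
Level of each of the 39 genes in each library as log2 of its CPM over the mean CPM of shCtrl, with shUSP8 libraries on the left, shCtrl libraries on the right and lines between roles. Lipa (top of the lipid block) and Gm2a (its last line) are the most strongly coloured in all 3 shUSP8 libraries, and the sulfatase block stays pale.

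Among the membrane proteins Lamp1, Lamp2 and Scarb2 rose. Lamp1, of the LAMP proteins that coat the inner face of the lysosome, had 644, 616 and 608 CPM in shUSP8, against 471, 468 and 515 CPM in shCtrl. Its log2 fold change was 0.36 (SE 0.055, adjusted p = 0.000363). Lamp2, its paralog, which also serves chaperone-mediated autophagy, had 179, 178 and 195 CPM in shUSP8, against 155, 155 and 170.4 CPM in shCtrl, and rose by 0.20 (SE 0.058, adjusted p = 0.0199). The Lamp2 call was lost without shUSP8_3 (adjusted p = 0.0919), shCtrl_1 (0.0927) or shCtrl_2 (0.101). Lamp1 per Lamp2 in TPM was 3.60, 3.48 and 3.13 in shUSP8, against 3.18, 3.22 and 3.22 in shCtrl, which overlap. Scarb2, known as LIMP-2, which carries glucocerebrosidase to lysosomes, had 40.7, 40.1 and 40.3 CPM in shUSP8, against 34.4, 32.3 and 35.2 CPM in shCtrl, and rose by 0.25 (SE 0.060, adjusted p = 0.00744). The Scarb2 call was lost without shCtrl_2 (0.0567).

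Of the other 7 membrane proteins, Hgsnat was called. Hgsnat, which acetylates heparan sulfate across the membrane, had 40.5, 38.5 and 40.6 CPM in shUSP8, against 49.3, 47.1 and 48.7 CPM in shCtrl, and fell by 0.28 on the log2 scale (SE 0.057, adjusted p = 0.00253). It was at -0.15 on log2(TPM + 1) and not called (0.178), or -0.26 relative to the median of all genes. Mcoln1, the calcium channel TRPML1, had 72.8, 71.0 and 70.8 CPM in shUSP8 below 78.6, 78.0 and 77.9 CPM in shCtrl, just outside the threshold (-0.13, adjusted p = 0.0561). It passed without shUSP8_1 (0.0391) and was at -0.30 with effective-length offsets (0.0616).

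Cd63 had 712, 574 and 671 CPM in shUSP8 and 671, 678 and 687 CPM in shCtrl; shUSP8_2 was the lowest and shUSP8_1 the highest of all libraries (95% interval of the log2 fold change -0.21 to 0.10). Cln3, a membrane protein lost in a juvenile storage disease of neurons, had 55.1, 48.3 and 54.7 CPM in shUSP8 and 53.3, 54.2 and 54.9 CPM in shCtrl, again lowest in shUSP8_2 (95% interval -0.17 to 0.096). Ctns, the cystine exporter, and Acp2, a lysosomal acid phosphatase made as a membrane protein, overlapped between groups, at -0.10 (95% interval -0.25 to 0.044) and -0.0021 (-0.11 to 0.10). The mean fragment length, estimated from counts, TPM and transcript lengths, was 368.3 bases in shUSP8_2, against 291.7 to 309.1 bases in the other 5 libraries. The part of fragment length in the low Cd63 and Cln3 values was not tested. With effective-length offsets Cd63 was at -0.031 and Cln3 at -0.0065.

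Tfeb, the regulator in the list, had 22.3, 20.4 and 20.8 CPM in shUSP8 and 20.2, 20.5 and 24.2 CPM in shCtrl. The groups overlapped and the log2 fold change was -0.033 (SE 0.082, adjusted p = 0.796, 95% interval -0.21 to 0.15). Tfeb is held in the cytoplasm or sent to the nucleus by phosphorylation, which mRNA does not show. Of 20 relatives and controllers of Tfeb, 5 rose and 3 fell, with a median of -0.061. Over all genes tested 17.8% rose and 14.9% fell, so these counts are near the general share. With effective-length offsets 3 of the 20 rose and 2 fell, and Rragd was below the TPM minimum and not tested. Tfec, a relative expressed in macrophages and osteoclasts, rose: it stood at 14.0 ± 0.297 CPM in shUSP8 and 9.12 ± 0.0698 CPM in shCtrl (0.61, SE 0.082, adjusted p = 0.000116). Mitf, which takes part in osteoclast formation, was at 77.4 ± 5.01 CPM in shUSP8 and 85.3 ± 2.26 CPM in shCtrl (-0.14, adjusted p = 0.0821), and Tfe3 at 81.9 ± 1.90 CPM in shUSP8 and 77.4 ± 3.44 CPM in shCtrl (0.081, adjusted p = 0.262).

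Among the proteins that link nutrient sensing on the lysosome to Tfeb, the GTPase gene Rragd rose by 1.23 (SE 0.24) at a low level of 2.12 ± 0.382 CPM in shUSP8 and 0.900 ± 0.0862 CPM in shCtrl. Rptor, the mTORC1 subunit raptor, rose by 0.24 (SE 0.054), and Fnip2, a partner of folliculin, by 0.31 (SE 0.078). Lamtor1, which anchors the Ragulator complex to the lysosome, had 112 ± 9.69 CPM in shUSP8 and 146 ± 0.824 CPM in shCtrl and fell (-0.38, SE 0.062). Flcn, folliculin, fell by 0.20 on the log2 scale (SE 0.052), and Rragc was at -0.14 with an adjusted p of 0.0477, which was 0.12 with effective-length offsets.

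The machinery that delivers hydrolases was also tested, as 12 genes of mannose 6-phosphate tagging and sorting. Of these 5 rose and 3 fell, with a median of 0.063, against 17.8% and 14.9% of all genes tested. With effective-length offsets 2 rose and 1 fell, and Sorl1 was below the TPM minimum and not tested. The receptors that carry tagged hydrolases were not called: M6pr stood at 492 ± 14.5 CPM in shUSP8 and 487 ± 8.20 CPM in shCtrl (0.015, 95% interval -0.092 to 0.12), and Igf2r at 917 ± 98.7 CPM in shUSP8 and 849 ± 22.2 CPM in shCtrl (0.11, -0.047 to 0.27). Gnptab, the phosphotransferase that makes the tag, had 519 ± 35.1 CPM in shUSP8 and 608 ± 22.8 CPM in shCtrl and fell (-0.23, SE 0.060, adjusted p = 0.0113). Nagpa, which uncovers the tag, rose by 0.23 (SE 0.053). The sorting receptor Sorl1 rose by 3.32 (SE 0.18), to 8.05 ± 1.15 CPM in shUSP8, against 0.799 ± 0.0691 CPM in shCtrl, and sortilin, Sort1, by 0.49 (SE 0.11).

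Lysosomal genes outside the 39 were likewise split. Of 54 others listed, 53 were tested, 19 rose and 11 fell, with a median of 0.11, against 17.8% and 14.9% of all genes tested. Slc11a1, the metal transporter NRAMP1 of phagocytes, had 229 ± 5.27 CPM in shUSP8 and 65.5 ± 1.45 CPM in shCtrl (1.81, SE 0.049), and was at 1.40 with effective-length offsets. Creg1, a lysosomal glycoprotein, had 323 ± 5.88 CPM in shUSP8 and 103 ± 5.37 CPM in shCtrl (1.64, SE 0.054). Pld4, an exonuclease of endolysosomes, rose by 1.05 (SE 0.062) and Litaf, a membrane protein of late endosomes, by 0.48 (SE 0.045). Hyal1, a hyaluronidase, fell by 0.37 on the log2 scale (SE 0.051) and Cd68, a LAMP-like protein of macrophages, by 0.36 (SE 0.065). Of the 53, 22 rose and 4 fell on log2(TPM + 1), where 2379 of all 12440 genes rose and 500 fell, with a median of 0.11.

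The direction of the larger changes did not depend on whether counts or TPM were compared. Lipa, Gla, Lgmn, Pla2g15, Lamp1, Ppt1, Neu1 and Asah1 rose, and Gm2a, Naglu, Hexa and Smpd1 fell, under all 17 alternatives tried, which are 12 of the 21 calls. With log2(TPM + 1) Gm2a was at -0.58, Naglu at -0.40 and Lipa at 1.11, which relative to the median of all genes are -0.69, -0.51 and 1.00. Of the 39 genes, 11 have exons that overlap those of a neighbouring gene in GENCODE M21, and strand was not stated for the counting. Ppt1 shares 129 exon bases (3.5% of its own) with Cap1 on the opposite strand, which had 88406 counts over the 6 libraries where Ppt1 had 6412; the expected counts of Ppt1 were whole in every library. Hexa shares 255 exon bases (12.8%) with Tmem202, which had 206 counts in all. Cln3 shares 442 (7.6%) with Apobr, which had 41040 counts where Cln3 had 6435. Sgsh shares 955 (21.6%) with Card14, at 3269 counts against 7308. Idua shares 124 (2.9%) with Dgkq, at 4544 counts against 5941. The largest share was that of Arsb, 1948 bases (32.3%) with Gm26527, for which no count was given. In all, 10 of the 39 genes had an expected count that was not whole in at least 1 library. They were Hexa, Glb1, Sgsh, Arsa, Arsb, Lamp1, Npc1, Cln3, Cd63 and Acp2. The part of reads from neighbouring genes in these values was not tested.

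**Figure D4:**
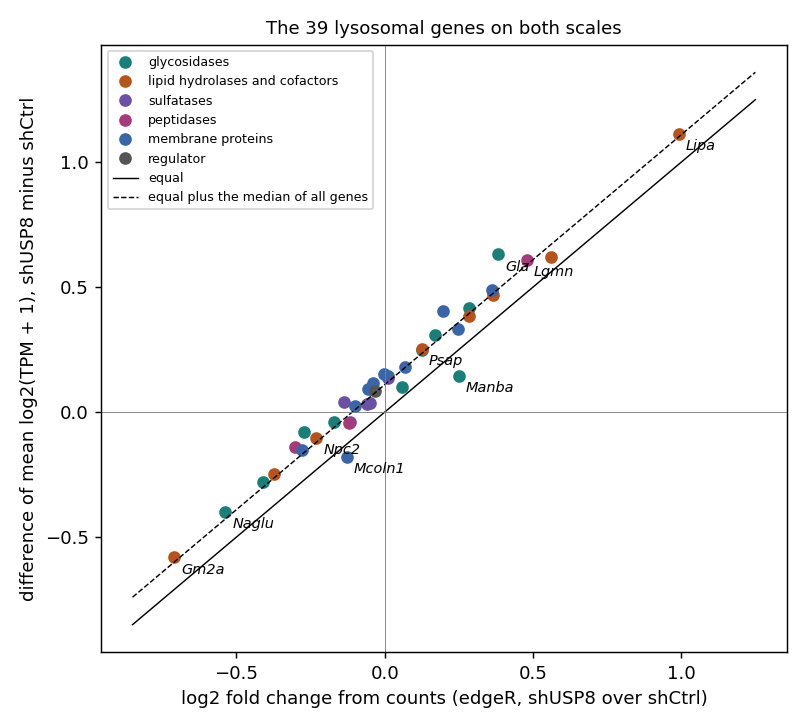
Log2 fold change from counts (x axis, edgeR, shUSP8 over shCtrl) against the difference of mean log2(TPM + 1) between shUSP8 and shCtrl (y axis) for the 39 genes, coloured by role, with lines for equal values and for equal values plus the median of all genes, 0.11. Most points follow the dashed line; Manba lies below it and Gla above it.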

How the data were processed

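The deposited tables hold RSEM expected counts and TPM values for 55291 symbols in 6 libraries. RSEM, DESeq2 1.28.1 and mm10 are named in the submitters' processing notes without their roles; aligner and annotation are not given in the sources used here. The expected counts, as deposited, are estimates of fragments per gene (7.16% not whole), and the TPM values, as deposited, are scaled per effective length to the same sum in each library. Columns named WT were taken as shCtrl by that genotype label, and columns named KO as shUSP8, the other genotype label, with the numbers of the titles.

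After rounding, shUSP8 was compared with shCtrl over all genes by the quasi-likelihood test of edgeR 4.0.16 in R 4.3.3, with robust dispersions and TMM normalization. Genes were kept by filterByExpr at a minimum count of 10 in enough libraries and 15 in total. Calls have a Benjamini-Hochberg adjusted p under 0.05. CPM values use TMM factors. SE is the absolute log2 fold change over the square root of F, and 95% intervals use it with the test's degrees of freedom. Effective-length offsets are expected count over TPM, for 11304 genes with at least 0.5 TPM in every library. Effective lengths in bases and mean fragment lengths were not measured. They are estimates from a line fitted to expected count over TPM against transcript length in single-transcript genes. Alternatives used limma 3.58.1 and DESeq2 1.42.0. The pipeline was also run on counts simulated from its own fitted dispersions, with far fewer genes changed than were called here. That run cannot show how reliable the present calls are, because its setting differs from these data. Coordinates and overlaps come from GENCODE M21 (GRCm38), which holds 98.7% of the files' transcripts. The 39 genes and all lists were chosen with earlier results of these data known. Every one of the 39 could be named; of the other lists, genes named are up to 4 called ones in each direction by smallest p, plus Sumf1, Tfe3, Mitf, M6pr, Igf2r and the marker genes Lyz2 and Csf1r, named after their values were seen; some genes of these lists are not reported here. The chi-square per gene was 2.26 between shCtrl_1 and shCtrl_2 and lay between 5.06 and 18.3 for every remaining pair of like libraries, so none were merged.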

Additional observations from a re-analysis of the deposited data

How the results depend on the processing

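With RLE or upper quartile factors, without the count filter and with limma-voom, 12 of the 39 genes rose and 9 fell, as in the comparison reported. Counts of all genes called lower were 1859 there, 1172 with library totals, 500 on log2(TPM + 1), 492 on log2(TPM + 0.1) and 343 on log2(TPM + 1) without the filter, and with effective-length offsets 1340 rose and 1159 fell. Of all calls, 54.4% were rises, against 72.6% with library totals and 82.6% on log2(TPM + 1). On each of the TPM scales 4 of the 39 genes fell. The median of the 39 was 0.042 with library totals and 0.10 on each TPM scale, beside 0.069 and 0.11 (log2(TPM + 1)), 0.13 (log2(TPM + 0.1)) or 0.037 (unfiltered) for all genes. Other lysosomal genes called lower numbered 7 with library totals, 4 on the filtered TPM scales and 1 unfiltered. With a library left out, 9 to 12 of the 39 rose and 7 to 10 fell, with a median between -0.053 and -0.0066, and over all genes 1239 to 2077 fell. The number of all genes called lower was 1239 without shCtrl_2.

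Genes not called changed sign as follows. With library totals Aga was at 0.032, Galns was at 0.015, Sgsh was at 0.023, Cln3 was at 0.035, Cd63 was at 0.017, Acp2 was at 0.072, Tfeb was at 0.042. With effective-length offsets Fuca1 was at -0.021, Acp2 was at 0.050. On log2(TPM + 1), filtered or not, Aga was at 0.092, Galns was at 0.032, Sgsh was at 0.035, Arsa was at 0.042, Cln3 was at 0.12, Ctns was at 0.024, Cd63 was at 0.091, Acp2 was at 0.15, Tfeb was at 0.084. On log2(TPM + 0.1) Aga was at 0.095, Galns was at 0.034, Sgsh was at 0.037, Arsa was at 0.045, Cln3 was at 0.12, Ctns was at 0.025, Cd63 was at 0.091, Acp2 was at 0.15, Tfeb was at 0.090. With a library left out, the ranges were -0.012 to 0.045 for Man2b1, -0.020 to 0.034 for Arsb, -0.072 to 0.019 for Cln3, -0.12 to 0.027 for Cd63, -0.019 to 0.018 for Acp2 and -0.080 to 0.054 for Tfeb.

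Whether equal replicate numbers pair the libraries is not stated in the labels. Correlations of deviations from the group mean were -0.013, 0.025 and -0.056 for equal numbers. For unequal numbers they lay between -0.090 and 0.098. With 3 libraries a group these correlations cannot decide whether the libraries are paired. With the replicate block, 11 of the 39 rose and 9 fell, with a median of -0.030, against 2021 rises and 1690 falls over all genes. Without a statement on separate cultures, 3 libraries a group limit the precision; intervals cover only their spread.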
